A study of Mus musculus with 2 samples.

Results

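The 10 genes described here code for the proteins that carry glucose into the cell and turn it into lactate. They were picked by name: the transporters Slc2a1 and Slc2a3, the hexokinases Hk1 and Hk2, and Pfkp, Aldoa, Gapdh, Pgk1, Eno1 and Ldha. They are 10 of the 24543 genes in the deposited single-cell tables, and all 10 had counts in every class of cells described below. Cells positive for the surface proteins CD31, an endothelial protein, and CD44, an adhesion receptor, had been sorted from the caudal region of mouse embryos at E10. The cKO embryos were Vec-Cre;Nupr1 fl/fl and lack the nuclear protein Nupr1 wherever the Cre was active. Their littermate controls were Nupr1 fl/fl and Nupr1 fl/+, with the hashtag label WT, and both groups were on the C57BL/6 background. The Cre is driven by the promoter of Cdh5 (VE-cadherin), which is active in endothelial cells, so that the blood cells descending from them can also carry the deletion. Cells of the 2 genotypes were labelled with different hashtags, carried by barcoded streptavidin, and were run together in 1 lane. There were 2 such replicates, 1 lane each. The cells of 1 genotype in 1 replicate are called a pool here. The number of embryos in a pool is not given in the sources used here, so that every p-value below measures the spread between 4 pools of cells and not between animals.

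Glucose enters a cell down its gradient through the facilitative transporters. Slc2a1 (GLUT1) is the widespread one and is the main glucose transporter of endothelium at the blood-brain barrier, and Slc2a3 (GLUT3) is a high-affinity transporter of neurons and platelets. Hexokinase traps the sugar as glucose 6-phosphate: Hk1 is the housekeeping form and Hk2 the inducible form found in muscle, fat and many dividing cells. Pfkp is the platelet form of phosphofructokinase, the committed step, and Aldoa, Gapdh, Pgk1 and Eno1 catalyse later steps down to phosphoenolpyruvate. Ldha reduces pyruvate to lactate and returns the NAD that Gapdh uses. Endothelial cells are known for making most of their ATP by glycolysis even where oxygen is present, and many of these genes are known targets of the hypoxia-inducible factors. Blood stem and progenitor cells arise in the embryonic aorta from arterial endothelium through the endothelial-to-hematopoietic transition (EHT).

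The tables held 2139 cells: 344 cKO and 334 control cells in replicate 1, and 713 cKO and 748 control cells in replicate 2, with 0 barcodes shared by the replicates. The cells were grouped into classes by clustering in which these 10 genes and the pathway lists below took no part. Of those lists, Mycn was also among the markers used to name the EHT-like class. Arterial-like (362 cells), venous-like (111), EHT-like (99), macrophage-like (759) and megakaryocyte-like cells (207) were named from their marker genes. A class of 168 cells is called Mpo+ progenitor-like, with the granulocyte genes S100a8 and S100a9 also among its leading genes. Another 179 endothelial cells had the arterial genes Gja4 and Gja5 and 1 gene of the vascular plexus, Igfbp3, among their 10 leading genes. They are called Esm1+Kitl+ endothelial cells after the level of both genes over the cluster, which is not the name of a cell type. Cell by cell, 99 of the 179 passed a direct gate on the arterial gene Gja5 and no other, and 12 passed that on Esm1 and Kitl together and no other. A further 229 cells in which EHT and progenitor genes led together are called Hlf+Myb+ cells. The EHT-like name also holds for the cluster more than for each cell. Of the 99 EHT-like cells, 13 passed a gate of at least 2 UMIs each of Gfi1 and Neurl3 and no other. Another 12 passed the Gja5 gate and no other, and 67 passed none or several. Among the 229 Hlf+Myb+ cells, 22 passed the Gfi1 and Neurl3 gate and no other. The remaining 25 cells were mesenchymal and were left out. Since the classes were drawn from other genes of the same cells, the tests between classes describe these classes as drawn. Counts of unique molecular identifiers (UMIs, each 1 captured transcript end) were added up over the cells of a class, genotype and replicate, and scaled to CPM, counts per 1e6 UMIs of the sum. This gave 4 sums a class, 30 in all, since replicate 1 held too few megakaryocyte-like cells (0 cKO and 4 control). The median cell had between 20465 and 96961 UMIs in these sums. The smallest sum is that of 10 Mpo+ progenitor-like cKO cells of replicate 1.

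The sorted proteins were only in part visible as transcripts. Pecam1 (CD31) had a UMI in 72.9% of all cells and in 44.9% of macrophage-like cells, and Cd44 in 74.8% of all cells but 22.5% of venous-like cells. The replicates differed in quality: the median mitochondrial share was 2.32% and 2.59% in the cKO and control cells of replicate 1, against 1.10% and 1.11% in replicate 2. Transcripts of other cells were also spread unevenly. In the 3 endothelial classes the summed level of 6 megakaryocyte markers, 6 of 6 of them in the tables, was 5.41 to 13.9 CPM in replicate 1 and 61.1 to 89.5 CPM in replicate 2, against at least 25527 CPM in megakaryocyte-like cells. The 7 macrophage markers summed to 1.8 to 15.6 CPM in replicate 1 and 21.8 to 34.1 CPM in replicate 2 in those classes, against 3713 to 5435 CPM in macrophage-like cells.

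In the mouse genome (GRCm38, GENCODE M21) the 10 genes lie on 6 chromosomes. Slc2a1 (chr4:119108711-119137983, plus strand) and Eno1 (chr4:150236721-150248879, plus) share chromosome 4. Slc2a3 (chr6:122727809-122801640), Hk2 (chr6:82725025-82774454) and Gapdh (chr6:125161715-125166467) lie on the minus strand of chromosome 6. Aldoa (chr7:126795234-126800751, minus, with a second gene record of that symbol at chr7:126800790-126809108, minus) and Ldha (chr7:46841475-46855627, plus) are on chromosome 7, Hk1 (chr10:62268855-62379908, minus) on chromosome 10, Pfkp (chr13:6579768-6648777, minus) on chromosome 13 and Pgk1 (chrX:106187100-106203699, plus) on the X chromosome. The promoters of 4 members are printed as examples of the steps: Slc2a1 for transport, Hk2 for the hexokinases, and Gapdh and Ldha for the abundant enzymes. They are RefSeq sequences (GRCm38.p6) of 300 bases each, from 250 bases before to 50 bases after an annotated start. Capitals mark ACGTG and GCGTG, the core letters of the hypoxia response element, searched on both strands, so that CACGT and CACGC are the same motifs read from the other strand and CACGTG counts once on each strand.
Slc2a1 (chr4:119108495-119108794, plus): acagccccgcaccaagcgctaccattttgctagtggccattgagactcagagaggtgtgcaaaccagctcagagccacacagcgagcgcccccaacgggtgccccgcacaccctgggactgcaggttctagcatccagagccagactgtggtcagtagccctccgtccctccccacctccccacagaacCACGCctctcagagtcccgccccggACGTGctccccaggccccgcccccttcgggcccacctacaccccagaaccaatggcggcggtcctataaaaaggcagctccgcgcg
Hk2 (chr6:82774405-82774704, minus): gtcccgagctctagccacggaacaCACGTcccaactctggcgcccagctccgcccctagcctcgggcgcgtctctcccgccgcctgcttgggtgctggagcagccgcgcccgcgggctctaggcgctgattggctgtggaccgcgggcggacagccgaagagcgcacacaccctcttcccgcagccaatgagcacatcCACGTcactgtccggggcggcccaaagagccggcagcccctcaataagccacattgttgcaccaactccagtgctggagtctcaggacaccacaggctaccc
Gapdh (chr6:125165724-125166023, minus): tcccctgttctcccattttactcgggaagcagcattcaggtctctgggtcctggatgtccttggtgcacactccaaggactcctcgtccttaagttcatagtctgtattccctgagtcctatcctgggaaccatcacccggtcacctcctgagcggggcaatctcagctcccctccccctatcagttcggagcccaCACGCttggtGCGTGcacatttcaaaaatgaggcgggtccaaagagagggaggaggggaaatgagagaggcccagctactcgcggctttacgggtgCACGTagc
Ldha (chr7:46845554-46845853, plus): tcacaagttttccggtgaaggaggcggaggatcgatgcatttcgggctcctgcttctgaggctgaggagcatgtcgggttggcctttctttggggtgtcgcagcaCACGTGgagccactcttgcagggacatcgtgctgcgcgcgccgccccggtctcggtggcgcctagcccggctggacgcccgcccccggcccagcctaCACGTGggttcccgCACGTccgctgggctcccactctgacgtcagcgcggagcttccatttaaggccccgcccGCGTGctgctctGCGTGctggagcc

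The Ldha promoter held 5 matches to ACGTG and 2 to GCGTG, the Gapdh promoter 1 and 2, the Slc2a1 promoter 1 and 1, and the Hk2 promoter 2 and 0. RefSeq entries were matched for 9 of the 10 members (15 promoters), and 13 of those 15 held at least 1 of the motifs. The promoters of starts 2 and 3 of Aldoa overlap and share their motif site. Those of starts 2 and 3 of Eno1 do so too, so that the 15 are not separate. Among 32851 mouse promoters of the same length 43.8% held at least 1, 19.6% ACGTG and 32.4% GCGTG. A match is a run of letters and not evidence of binding.

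Glucose transport was divided between the classes, with Slc2a1 highest in Esm1+Kitl+ and venous-like endothelial cells and Slc2a3 highest in megakaryocyte-like cells. In all series of 4 values below, the order is cKO replicate 1, cKO replicate 2, control replicate 1 and control replicate 2. Slc2a1 stood at 826, 962, 640 and 1073 CPM in Esm1+Kitl+ cells and at 74.5, 77.1, 44.3 and 82.2 CPM in arterial-like cells. All 4 Esm1+Kitl+ sums lay above every other sum in the data, and the difference from arterial-like cells was 12.7-fold (log2 fold change 3.67 ± 0.22 SE, edgeR quasi-likelihood test, adjusted p = 9.44e-13). In venous-like cells Slc2a1 stood at 234, 203, 175 and 159 CPM. Venous-like cells were thus second, clear of both neighbours, and 3.04-fold above arterial-like cells (1.60 ± 0.21, adjusted p = 6.62e-07).

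Scaled to CPM, Slc2a1 was lowest in the blood classes. Its 4 sums were 41.3, 42.9, 30.8 and 41.7 CPM in Hlf+Myb+ cells and 36.4, 35.3, 24.8 and 37.6 CPM in Mpo+ progenitor-like cells, all below the lowest arterial-like sum. Both classes differed from arterial-like cells (log2 fold changes −0.67 ± 0.21 and −0.79 ± 0.22, adjusted p = 0.00737 and 0.00191). In EHT-like cells the values of 58.9, 68.6, 56.2 and 107 CPM overlapped those of arterial-like cells (0.15 ± 0.21, adjusted p = 0.625). Against EHT-like cells, Slc2a1 was lower in Hlf+Myb+ cells (−0.83 ± 0.22, adjusted p = 0.00898) and in Mpo+ progenitor-like cells (−0.95 ± 0.22, adjusted p = 0.000833). The first of these calls was lost without cKO replicate 2 (adjusted p = 0.0596), without control replicate 2 (adjusted p = 0.101) and in thinned cells (adjusted p = 0.17). In macrophage-like cells, at 43.5 ± 3.75 CPM (SD, n = 4), the difference did not pass (−0.40 ± 0.21, adjusted p = 0.0914), but with the pool as a block it did (adjusted p = 0.00809). This block, of genotype and replicate together, is the one used for all class contrasts below. Megakaryocyte-like cells stood at 59.1 and 51.4 CPM in the 2 sums of replicate 2, within the arterial-like range.

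**Figure D1:**
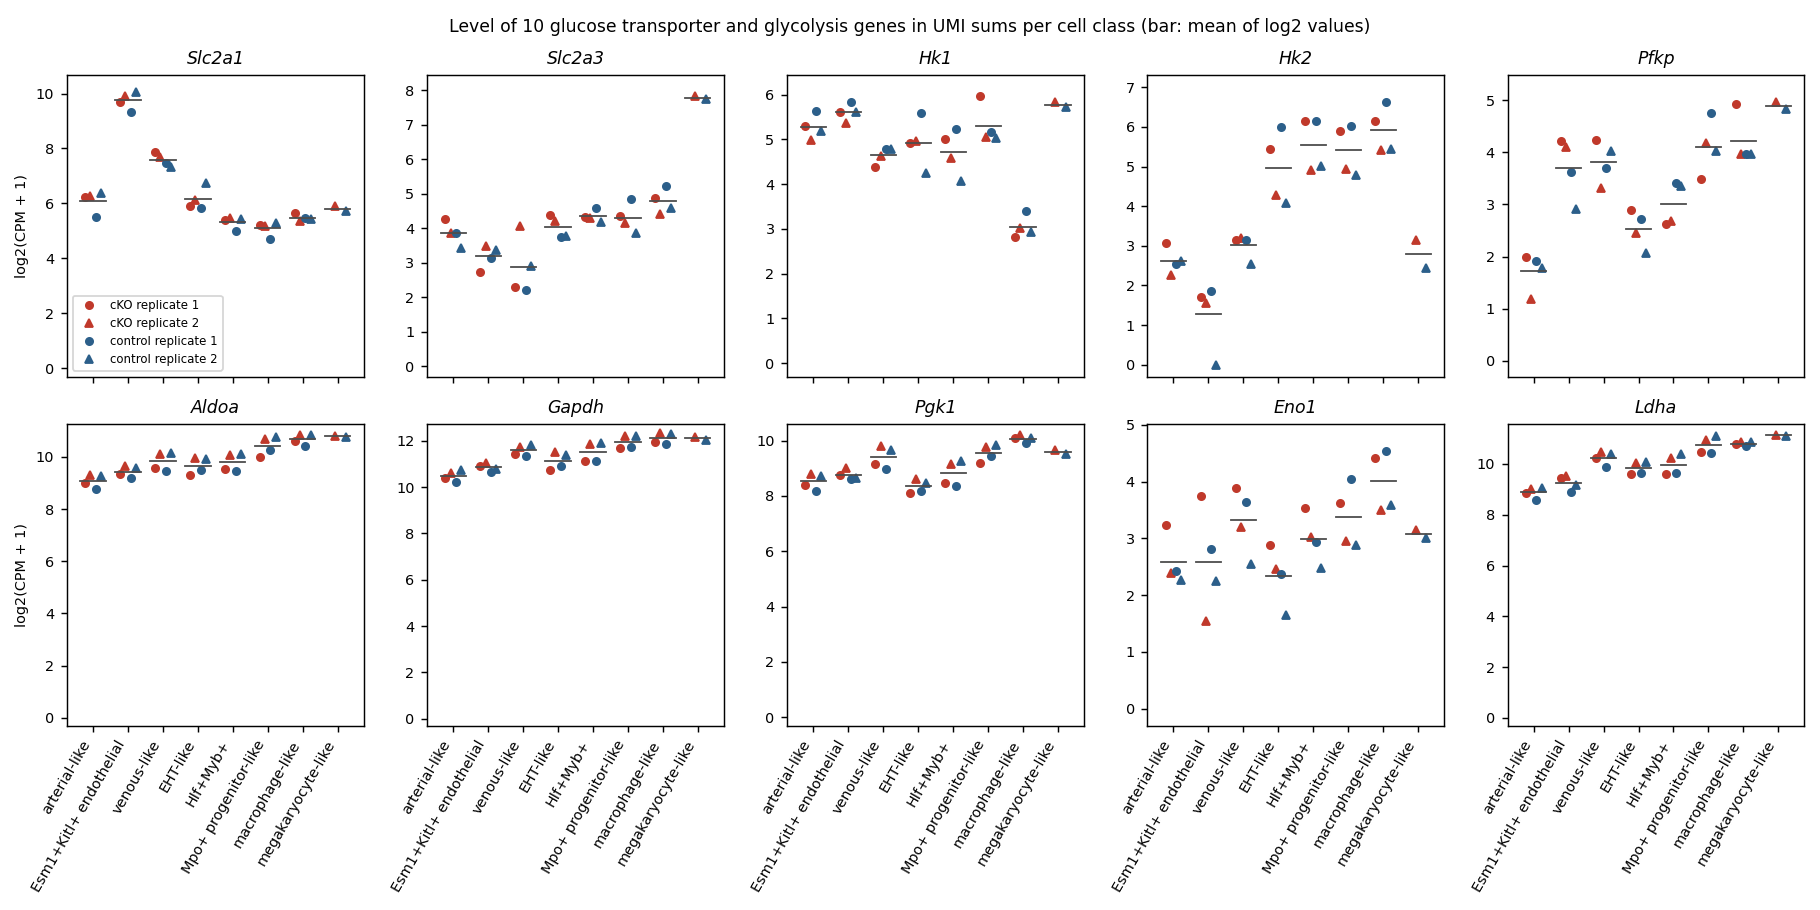
Level of each of the 10 genes in the 8 classes of cells, as log2(CPM + 1) of each UMI sum (red cKO, blue control, circles replicate 1, triangles replicate 2, bar the mean of the log2 values). Slc2a1 stands highest in Esm1+Kitl+ cells, Slc2a3 in megakaryocyte-like cells, and Hk2 is high in EHT-like, Hlf+Myb+, Mpo+ progenitor-like and macrophage-like cells.

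Slc2a3 reached 225 and 214 CPM in megakaryocyte-like cells, against 18.4, 13.6, 13.6 and 9.67 CPM in arterial-like cells. The 2 sums lay far above all 28 others, and the difference was 20.2-fold (log2 fold change 4.34 ± 0.28 SE, adjusted p = 4.76e-14). Macrophage-like cells came next, at 28.6, 20.2, 36.2 and 23.0 CPM, all above the highest arterial-like value (1.22 ± 0.25, adjusted p = 9.58e-05). Hlf+Myb+ cells (19.5 ± 2.63 CPM, SD, n = 4) and Mpo+ progenitor-like cells (19.3 ± 6.03) overlapped the arterial-like range but passed the test (0.66 ± 0.26 and 0.68 ± 0.27, adjusted p = 0.0316 and 0.0278). The first call was lost without cKO replicate 2 (adjusted p = 0.0506), control replicate 1 (0.0974) or control replicate 2 (0.193), and the second without either control pool (0.174 without replicate 1 and 0.106 without replicate 2). In venous-like cells Slc2a3 was lower, at 3.95, 15.7, 3.61 and 6.43 CPM (−0.91 ± 0.33, adjusted p = 0.0336). That call rested on few counts and was lost without cKO replicate 1 (adjusted p = 0.504), control replicate 1 (0.189) or control replicate 2 (0.0721). Slc2a3 in replicate 2, which carried more megakaryocyte transcripts, was 3.96 and 1.78 times its level in replicate 1 in venous-like cells (cKO and control), 1.82 and 1.20 times in Esm1+Kitl+ cells and 0.742 and 0.713 times in arterial-like cells. The part of megakaryocyte transcripts in these levels was not tested.

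At equal depth the same picture held cell by cell. After every cell had been thinned to 6000 UMIs, Slc2a1 had a UMI in 82.0% of Esm1+Kitl+ cells (141 of 172, exact 95% interval 75.4 to 87.4%), in 63.6% of venous-like cells (53.9 to 72.6%) and in 31.1% of arterial-like cells (26.2 to 36.2%). Unthinned, these shares were 97.8%, 96.4% and 66.6%. Mpo+ progenitor-like cells had the lowest thinned share, 15.0% (9.93 to 21.3%), but 83.9% unthinned, above the arterial-like share. In UMIs per cell without scaling for depth, Slc2a1 had its lowest mean in arterial-like cells, at 1.91. It was 2.64 in Hlf+Myb+, 2.88 in Mpo+ progenitor-like and 2.69 in macrophage-like cells. Slc2a3 was 0.523 UMIs per cell in venous-like and 0.369 in arterial-like cells. Slc2a3 was found in 65.2% of thinned megakaryocyte-like cells (58.3 to 71.7%; 100% unthinned) and in 2.73% of venous-like cells (0.566 to 7.76%; 22.5% unthinned). The median depth before thinning ran from 24843 UMIs in arterial-like cells to 89038 in Mpo+ progenitor-like cells, and no class here is known to lack these genes. The intervals cover counting error only.

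Among the hexokinases, Hk2 was low in arterial-like and Esm1+Kitl+ endothelial cells and high in EHT-like cells and most blood classes. In arterial-like cells it stood at 7.45, 3.83, 4.79 and 5.18 CPM, and in EHT-like cells at 42.6, 18.6, 63.2 and 16.0 CPM. Every EHT-like sum lay above every arterial-like sum, and the difference was 7.18-fold (log2 fold change 2.84 ± 0.43 SE, adjusted p = 5.67e-06). In Hlf+Myb+ cells Hk2 stood at 69.4, 29.4, 69.5 and 31.1 CPM (10.2-fold, adjusted p = 4.62e-08), in Mpo+ progenitor-like cells at 59.1, 29.5, 63.9 and 26.5 CPM (9.33-fold, adjusted p = 7.81e-08). Macrophage-like cells had the highest mean, at 70.2, 42, 97.7 and 42.7 CPM (14-fold, adjusted p = 1.85e-09). These 4 classes overlapped each other, and neither Hlf+Myb+ nor Mpo+ progenitor-like cells differed from EHT-like cells past the threshold (0.51 ± 0.34 and 0.38 ± 0.35, adjusted p = 0.382 and 0.401). With the pool as a block both did (0.55 and 0.47, adjusted p = 0.0178 and 0.0251). With cells thinned to 6000 UMIs each the second difference was −0.59 (adjusted p = 0.461), with the sign turned.

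Hk2 levels in these 4 classes were higher in replicate 1 than in replicate 2 in both genotypes. Hk2 remained low in venous-like cells (7.18 ± 1.58 CPM, SD, n = 4, adjusted p = 0.386) and in megakaryocyte-like cells (7.85 and 4.45 CPM, adjusted p = 0.361). It was lowest in Esm1+Kitl+ cells, at 2.25, 1.93, 2.60 and 0 CPM, where the difference from arterial-like cells passed only with the block (log2 fold change −1.55, adjusted p = 0.0128, against 0.175 without it). In EHT-like cells the 7 macrophage markers summed to 6.25 to 28.9 CPM and in Mpo+ progenitor-like cells to 23.2 to 76.1 CPM, against the 3713 to 5435 CPM of macrophage-like cells. After thinning, Hk2 had a UMI in 19.4% of EHT-like cells (12.1 to 28.6%; 56.6% unthinned), 23.5% of Hlf+Myb+ cells (18.1 to 29.5%) and 2.56% of arterial-like cells (1.18 to 4.81%; 8.84% unthinned).

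Hk1 varied less. Its means were 38.3 ± 7.82 CPM in arterial-like, 48.0 ± 6.48 in Esm1+Kitl+, 24.1 ± 3.19 in venous-like, 31.1 ± 12.0 in EHT-like, 26.7 ± 9.10 in Hlf+Myb+ and 40.0 ± 14.3 CPM in Mpo+ progenitor-like cells (SD, n = 4 each). Macrophage-like cells were the exception, at 6.01, 7.17, 9.52 and 6.59 CPM, below every other sum. There Hk1 was 0.232 times its arterial-like level (log2 fold change −2.11 ± 0.23 SE, adjusted p = 1.89e-09). Megakaryocyte-like cells, at 55.9 and 51.7 CPM, stood above all arterial-like sums (0.82 ± 0.24, adjusted p = 0.004). The lower values in venous-like and Hlf+Myb+ cells passed with the block (−0.59 and −0.40, adjusted p = 0.0107 and 0.0338) and not without it (adjusted p = 0.0656 and 0.125). An antisense gene, Hk1os, overlaps Hk1 and had 274 UMIs of its own.

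Set side by side, the balance within each pair shifted between the classes. Slc2a3 made up 0.950% ± 0.229 (SD, n = 4) of the UMIs of both transporters in Esm1+Kitl+ cells, 3.68% ± 2.51 in venous-like, 17.2% ± 5.63 in arterial-like, 18.6% ± 6.02 in EHT-like, 33.5% ± 6.44 in Hlf+Myb+, 36.5% ± 11.3 in Mpo+ progenitor-like and 37.9% ± 5.34 in macrophage-like cells. In megakaryocyte-like cells the 2 sums gave 79.2% and 80.6%. UMIs count transcript ends and were not scaled by gene length. Hk2 made up 3.36% ± 2.24 of hexokinase UMIs in Esm1+Kitl+ cells, 12.3% ± 3.13 in arterial-like, 23.1% ± 5.65 in venous-like, 50.4% in EHT-like, 64.2% in Hlf+Myb+, 51.8% in Mpo+ progenitor-like and 88.8% in macrophage-like cells, and 10.1% in megakaryocyte-like cells.

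The differences in share were tested for 18 pairs of classes with a two-sided exact permutation test over the sums. For 4 sums against 4 the smallest p it allows is 0.0286 (0.0429 after adjustment over the 18), which 12 pairs reached. The test takes the sums as unpaired although the classes share their pools, and a paired test of the shares was not run. For Slc2a3 these were Esm1+Kitl+, venous-like, Hlf+Myb+, Mpo+ progenitor-like and macrophage-like against arterial-like cells, and Hlf+Myb+ and Mpo+ progenitor-like against EHT-like cells. For Hk2 they were Esm1+Kitl+, EHT-like, Hlf+Myb+, Mpo+ progenitor-like and macrophage-like against arterial-like cells. The Slc2a3 share of EHT-like cells overlapped that of arterial-like cells (difference 1.37 percentage points, exact permutation p = 0.686). The Hk2 share rose by 38.1 percentage points from arterial-like to EHT-like cells, and its further differences to Hlf+Myb+ (13.7 points, exact permutation p = 0.0857) and Mpo+ progenitor-like cells (1.39 points, exact permutation p = 0.886) did not pass. With 2 sums, megakaryocyte-like cells could not go below an exact permutation p of 0.0667.

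**Figure D2:**
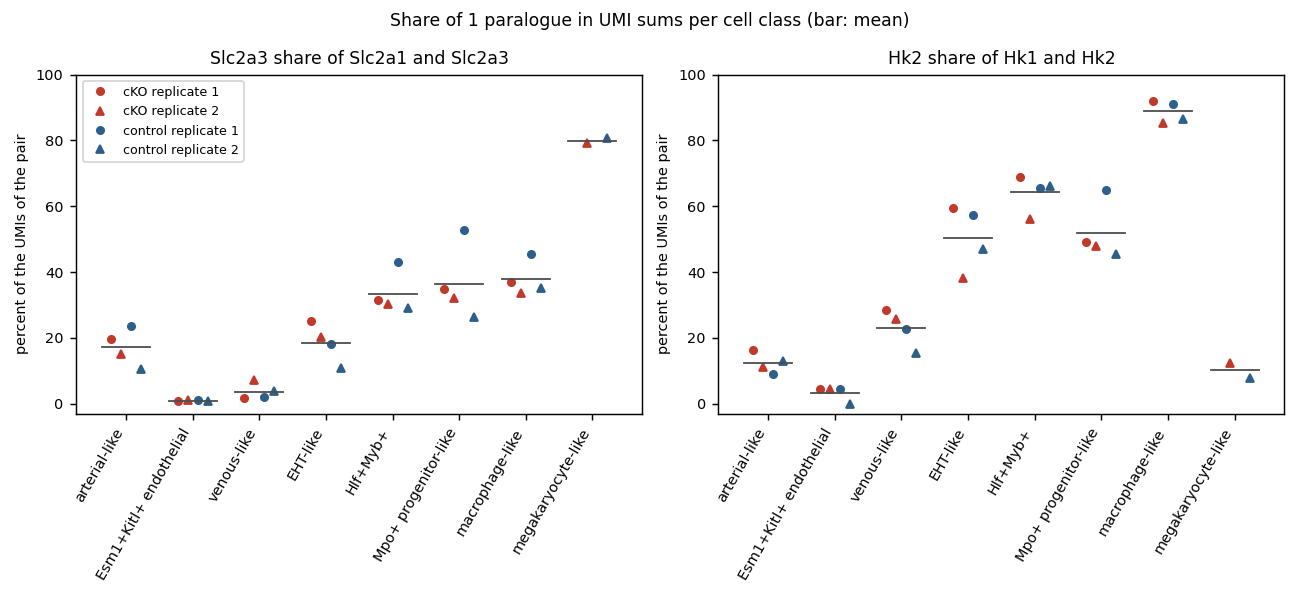
Share of Slc2a3 among the UMIs of Slc2a1 and Slc2a3, and of Hk2 among those of Hk1 and Hk2, in percent, for each UMI sum of each class, with the mean as a bar (colours and symbols as for the levels by class). Slc2a3 is on average the smaller part in every class but megakaryocyte-like cells, and Hk2 runs from 3.36% in Esm1+Kitl+ cells to 88.8% in macrophage-like cells.

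Pfkp was lowest in arterial-like cells, at 2.98, 1.28, 2.79 and 2.42 CPM, and every sum of the 7 other classes lay above that range. These 4 sums held only 6, 3, 7 and 7 Pfkp UMIs, so that every fold change against them rests on few counts. The EHT-like sums held 9, 7, 8 and 3. It stood at 17.5, 16.0, 11.3 and 6.54 CPM in Esm1+Kitl+ cells (5.65-fold, log2 fold change 2.50 ± 0.39 SE, adjusted p = 2.25e-05) and at 17.8, 8.94, 12.0 and 15.3 CPM in venous-like cells (6.38-fold, 2.67 ± 0.37, adjusted p = 2.02e-06). All 8 of these sums lay above the arterial-like range, and the ranges of Esm1+Kitl+ and venous-like cells overlapped. The fit gave no value for Pfkp in any class in cells thinned to 6000 UMIs, so that these fold changes were not tested at equal depth. After thinning, Pfkp had a UMI in 1.71% of arterial-like (0.630 to 3.68%) and 2.04% of EHT-like cells (0.248 to 7.18%). The share was 7.56% in Esm1+Kitl+ (4.09 to 12.6%), 10.0% in venous-like (5.10 to 17.2%) and 4.87% in Hlf+Myb+ cells (2.45 to 8.54%). It was 10.2% in Mpo+ progenitor-like, 8.11% in macrophage-like and 12.1% in megakaryocyte-like cells. Hlf+Myb+ cells were 3.42-fold higher, Mpo+ progenitor-like cells 8.65-fold, macrophage-like cells 9.10-fold and megakaryocyte-like cells, at 30.2 and 27.4 CPM, 15.1-fold (adjusted p = 0.00019, 5.31e-09, 1.49e-09 and 9.62e-11). EHT-like cells, at 6.38, 4.49, 5.55 and 3.20 CPM, were the nearest to arterial-like cells (2.27-fold, 1.18 ± 0.47, adjusted p = 0.0475). That call was lost with the pool block (adjusted p = 0.0615) and without any 1 of the 4 pools (adjusted p between 0.0653 and 0.199). From EHT-like to Mpo+ progenitor-like cells Pfkp differed by 3.82-fold (adjusted p = 3.89e-05). Within arterial-like cells Pfkp was 0.855, 0, 2.60 and 1.02 CPM in the larger cluster and 5.92, 3.92, 3.10 and 5.36 CPM in the cycling one, which had 271 to 474 CPM of the proliferation gene Mki67 against 25.3 to 49.6. Both clusters share the few arterial-like UMIs given above.

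Of the abundant enzymes, Aldoa, Gapdh and Ldha had their highest means in macrophage-like and megakaryocyte-like cells and their lowest in arterial-like cells. The megakaryocyte-like means come from replicate 2 only, where these genes were higher in the other classes. Within replicate 2, Gapdh was lower in megakaryocyte-like (4570 and 4265 CPM, cKO and control) than in Mpo+ progenitor-like cells (4724 and 4811 CPM). Aldoa stood at 1808 and 1726 against 1666 and 1740 CPM. With the pool block, megakaryocyte-like log2 fold changes were 1.74, 1.66 and 2.32 for Aldoa, Gapdh and Ldha, against 2.02, 1.93 and 2.56 without it. Pgk1 was highest in macrophage-like cells and had its lowest mean in EHT-like cells. These 4 genes made up 95.4% to 98.0% of the members' UMIs in 7 classes and 79.2% in Esm1+Kitl+ cells, where Slc2a1 took a larger part. Ldha stood at 466, 520, 385 and 527 CPM in arterial-like and at 770, 1038, 808 and 1091 CPM in EHT-like cells, without overlap (2.11-fold, log2 fold change 1.08 ± 0.22 SE, adjusted p = 0.000253). In venous-like cells it stood at 1196, 1412, 932 and 1347 CPM (2.83-fold, adjusted p = 4.99e-06), and in megakaryocyte-like cells at 2254 and 2207 CPM (5.90-fold, adjusted p = 4.83e-10). The lower of these megakaryocyte-like sums lay just above the highest Mpo+ progenitor-like sum, 2196 CPM, both in control replicate 2. Hlf+Myb+ cells were 2.45-fold above arterial-like cells, Mpo+ progenitor-like cells 4.35-fold and macrophage-like cells 4.59-fold (adjusted p = 1.02e-05, 1.51e-09 and 6.45e-10). Ldha did not differ past the threshold between EHT-like and Hlf+Myb+ cells (0.21 ± 0.22, adjusted p = 0.60), but was 2.06-fold higher in Mpo+ progenitor-like than in EHT-like cells (adjusted p = 0.000235).

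Gapdh followed the same course. It stood at 1351, 1552, 1205 and 1695 CPM in arterial-like, 1726, 2962, 1954 and 2649 CPM in EHT-like and 2226, 3757, 2237 and 3808 CPM in Hlf+Myb+ cells. The differences from arterial-like cells were 1.74-fold (0.80 ± 0.23, adjusted p = 0.00769) and 2.33-fold (1.22 ± 0.23, adjusted p = 5.76e-05), and all sums of both classes lay above the arterial-like range. Without cKO replicate 2 the EHT-like call was lost (adjusted p = 0.0759). Venous-like cells were 2.35-fold, Mpo+ progenitor-like 3.31-fold, macrophage-like 3.76-fold and megakaryocyte-like cells 3.82-fold above arterial-like cells (adjusted p between 2.38e-07 and 0.000161 for the first 2, and 4.02e-08 and 4.09e-07 for the others). Aldoa rose by 1.63-fold in EHT-like cells (825 ± 175 against 547 ± 95 CPM, SD, n = 4, adjusted p = 0.0192), a call lost without cKO replicate 2 (0.0969) or control replicate 2 (0.0604). It was 1.86-fold to 4.06-fold higher in the other classes apart from Esm1+Kitl+ cells.

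Pgk1 differed from the other 3 at the EHT step. It stood at 271, 393, 287 and 356 CPM in EHT-like and at 336, 445, 287 and 419 CPM in arterial-like cells, which overlapped (log2 fold change −0.08 ± 0.24 SE, adjusted p = 0.845). Pgk1 was highest in macrophage-like cells, at 1094, 1164, 953 and 1098 CPM, above every other sum (3.53-fold, adjusted p = 1.15e-07). In Mpo+ progenitor-like cells it was 2.43-fold above arterial-like (adjusted p = 2.47e-05) and 2.56-fold above EHT-like cells (adjusted p = 2.90e-05). In Hlf+Myb+ cells, at 465 ± 146 CPM, it passed against arterial-like (adjusted p = 0.00126) and EHT-like cells (0.00181) with the block but not without it (0.0766 and 0.118). In Esm1+Kitl+ cells none of these 4 enzymes passed. With the block Aldoa (0.38), Gapdh (0.40) and Ldha (0.42) did, at adjusted p = 0.000636, 0.0104 and 0.0131.

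Eno1 was the least abundant of the lower enzymes in these tables, at 4.29 ± 1.74 CPM in EHT-like to 16.0 ± 6.22 CPM in macrophage-like cells (SD, n = 4). A near-identical copy, Eno1b, had 553 UMIs beside 1132 of Eno1, so that reads may have been split between them or lost, and the level of Eno1 is uncertain. Eno1 was higher in macrophage-like (3.58-fold, adjusted p = 3.70e-05), venous-like (2.18-fold, 0.0284) and Mpo+ progenitor-like cells (2.09-fold, 0.0162) than in arterial-like cells. The venous-like call was lost without any 1 of the 4 pools (adjusted p between 0.0519 and 0.128), and the Mpo+ progenitor-like one without control replicate 1 (0.190). The difference between Mpo+ progenitor-like and EHT-like cells (2.23-fold, adjusted p = 0.0327) was lost without control replicate 1 (0.258) or control replicate 2 (0.0655). With the block Eno1 also passed in Hlf+Myb+ (0.64, adjusted p = 0.0328) and megakaryocyte-like cells (1.29, adjusted p = 0.00012), and so did Hk2 in the latter (1.02, adjusted p = 0.00262). That Hk2 difference was 0.54 without the block (adjusted p = 0.361) and −0.064 in thinned cells (adjusted p = 0.967).

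**Figure D3:**
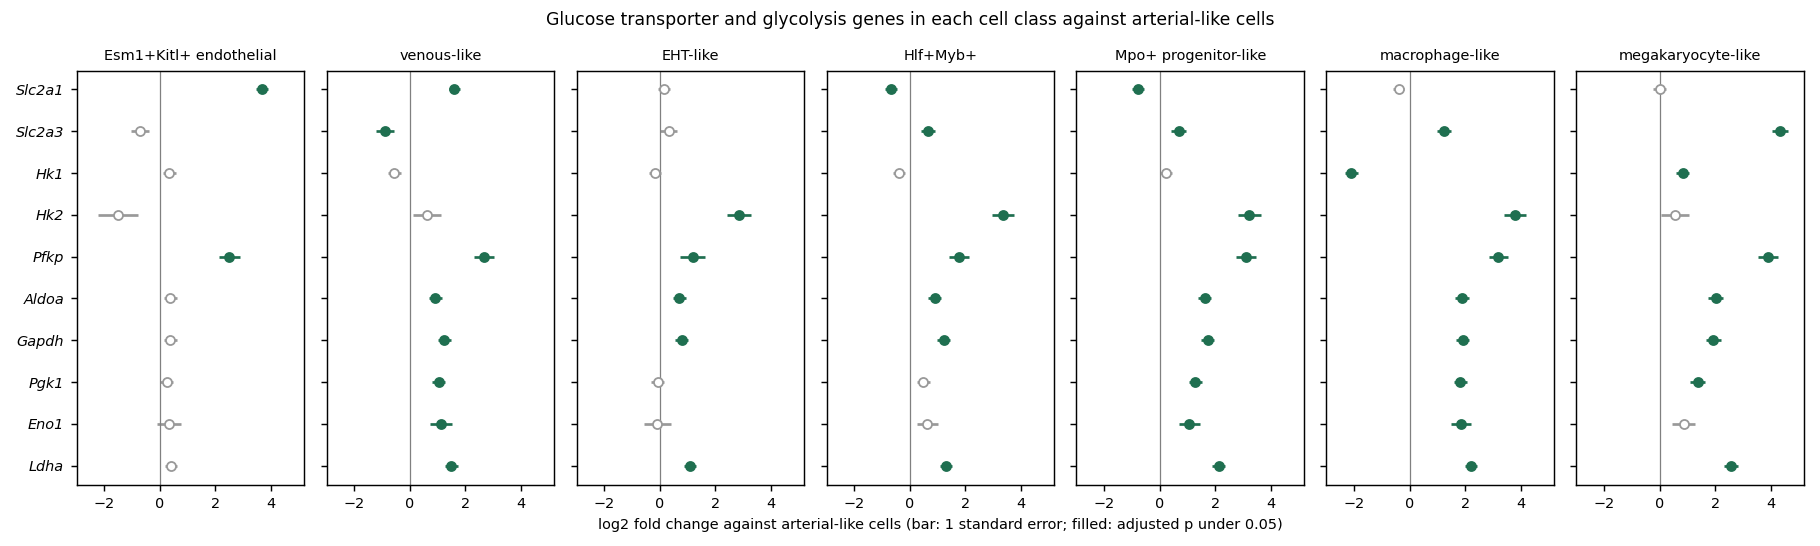
Difference of each of the 10 genes from arterial-like cells in the 7 other classes, as log2 fold change ± 1 SE from the edgeR fit; filled green points have an adjusted p under 0.05. The 2 filled points in Esm1+Kitl+ cells are Slc2a1 and Pfkp, while 8 members are higher in Mpo+ progenitor-like and in macrophage-like cells.

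Counted over the 10 members, 2 were higher and 0 lower in Esm1+Kitl+ than in arterial-like cells, where 15.6% of 11658 genes tested were called in either direction (6.58% higher, 8.97% lower). In venous-like cells 7 were higher and 1 lower (30.0% of all genes called, 13.8% higher and 16.2% lower), in EHT-like cells 5 and 0 (35.6%, 16.6% and 19.0%) and in Hlf+Myb+ cells 6 and 1 (54.7%, 26.2% and 28.5%). In Mpo+ progenitor-like cells 8 were higher and 1 lower (65.0%, 30.5% and 34.5%), in macrophage-like cells 8 and 1 (62.3%, 30.9% and 31.3%) and in megakaryocyte-like cells 7 and 0 (60.7%, 29.5% and 31.2%). In the last 4 comparisons most genes were called, so that a count in either direction says little about the members. The members' median log2 fold change was 0.36, 1.08, 0.51, 0.78, 1.45, 1.86 and 1.65 in these 7 comparisons in turn, and that of all genes lay between −0.07 and 0.03. Between Hlf+Myb+ and EHT-like cells 0 members were higher and 1 was lower (12.7% of all genes called, 5.63% higher and 7.10% lower), and between Mpo+ progenitor-like and EHT-like cells 6 and 1 (43.9%, 19.3% and 24.7%). Together the 10 members took 0.298% ± 0.0447 of all UMIs in arterial-like cells (SD, n = 4). They took 0.456% in EHT-like, 0.813% in Mpo+ progenitor-like, 0.915% in macrophage-like and 0.955% in megakaryocyte-like cells, the last from replicate 2 only. In replicate 2 (cKO and control) the share was 1.02% and 0.993% in macrophage-like cells. It was 0.982% and 0.928% in megakaryocyte-like and 0.936% and 0.979% in Mpo+ progenitor-like cells.

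Across the 30 sums, Gapdh ran with Ldha (Pearson r = 0.974 of log2(CPM + 1)) and Aldoa (0.964), and next with Tpi1 (0.957), the triose phosphate isomerase that stands just before it in the pathway. Pgk1 ran closest with Pgam1 (0.956), the mutase that takes over its product. Slc2a1 ran closest with Esm1 (0.931), an endothelial proteoglycan, and against Hk2 (−0.794) and Slc2a3 (−0.500). Hk2 was most like Gart (0.940), an enzyme of purine synthesis, and Slc2a3 most like Fgfr1op2 (0.864) and Rap1b (0.853), a small GTPase of platelets. Hk1 was most like Igf1r (0.896), the receptor for insulin-like growth factor, and Pfkp most like Nt5c (0.832), Tnnt1 (0.817) and Pkm (0.815), the pyruvate kinase. These 30 sums come from 8 classes and share pools and depth, so that the values are descriptions only, and Esm1 helped to define a class.

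The other genes of the pathway were counted against the same shares of all genes called, given above for each comparison. These were 15.6% in Esm1+Kitl+, 30.0% in venous-like and 35.6% in EHT-like cells, and between 54.7% and 65.0% in the 4 blood classes. Of 20 further glycolysis genes 12 were tested, and 2 were higher and 3 lower in Esm1+Kitl+ than in arterial-like cells, 6 and 2 in venous-like, 6 and 1 in EHT-like, 8 and 1 in Hlf+Myb+, 8 and 2 in Mpo+ progenitor-like, and 8 and 3 in both macrophage-like and megakaryocyte-like cells. Their median log2 fold change was 0.15 in Esm1+Kitl+, 0.59 in EHT-like and 1.78 in macrophage-like cells. Pkm, which makes pyruvate, was 2.37-fold higher in Esm1+Kitl+ (adjusted p = 3.78e-06) and 3.53-fold higher in venous-like cells (3.22e-09). Gpi1, the isomerase after hexokinase, was 1.84-fold higher in Esm1+Kitl+ cells (0.00107) and 1.78-fold higher in EHT-like cells (0.000839). Bpgm, which makes 2,3-bisphosphoglycerate, was lower in both (0.463 and 0.335 times, adjusted p = 4.91e-05 and 1.45e-07). Ldhb, the other lactate dehydrogenase subunit, went in opposite directions, at 0.445 times in Esm1+Kitl+ (0.0323) and 2.10 times in EHT-like cells (0.00716). Eno3, the muscle enolase, was 5.18-fold higher in EHT-like (5.66e-05) and 19.8-fold higher in megakaryocyte-like cells (1.40e-11).

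Among carriers of glucose and lactate 8 of 14 were tested, of which 0 passed in Esm1+Kitl+ cells and 2 were higher and 2 lower in EHT-like cells. Slc16a1 (MCT1), a lactate carrier of wide expression, was 3.42-fold higher in EHT-like cells (adjusted p = 2.90e-05), while Slc16a3 (MCT4), the exporter of strongly glycolytic cells, was 0.318 times its arterial-like level there (0.00184). Slc16a3 was higher in venous-like (4.00-fold, 5.26e-06), Mpo+ progenitor-like (5.85-fold, 7.23e-09), macrophage-like (7.75-fold, 3.07e-10) and megakaryocyte-like cells (16.0-fold, 7.34e-12). Of 15 tested genes that set the flux through glycolysis, 0 passed in Esm1+Kitl+ cells and 1 higher and 1 lower in EHT-like cells, with Pfkfb3, the endothelial activator of phosphofructokinase, 0.498 times its arterial-like level (0.00682). All 7 genes of the pentose phosphate pathway were tested and 4 of 7 were higher in EHT-like cells, against 16.6% of all genes, among them Tkt (2.31-fold, 1.26e-07) and Pgd (1.95-fold, 2.31e-07). In Mpo+ progenitor-like and macrophage-like cells 7 of 7 were higher, against 30.5% and 30.9% of all genes.

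Hypoxia genes did not move as 1 group. Of 9 regulators, 0 passed in Esm1+Kitl+ cells and 1 higher and 1 lower in EHT-like cells, where Epas1 (HIF-2α), the endothelial hypoxia-inducible factor, was 0.111 times its arterial-like level (adjusted p = 9.28e-07) and Egln3, a prolyl hydroxylase, 2.00 times (0.0049). Of 12 tested hypoxia targets outside glycolysis, 4 were higher and 1 lower in Esm1+Kitl+ cells. These 4 include Adm, adrenomedullin (12.2-fold, 2.46e-05), Bnip3, a mitophagy receptor (2.53-fold, 0.011), and P4ha1, a collagen hydroxylase (1.99-fold, 0.000175), while Vegfa was 0.417 times its arterial-like level (0.0029). In EHT-like cells 0 were higher and 5 lower, with Vegfa at 0.197 times (2.03e-06) and P4ha1 at 0.488 times (0.000287), while Ldha, Gapdh and Hk2 were higher there. Of 16 genes of the citric acid cycle 7 were higher and 0 lower in EHT-like cells and 0 passed in Esm1+Kitl+ cells, and of 20 nuclear-encoded subunits of the respiratory chain 5 were higher and 1 lower, against 1 and 0. Of all genes tested 16.6% were higher and 19.0% lower in EHT-like cells and 6.58% and 8.97% in Esm1+Kitl+ cells, so that the count of respiratory chain genes is near the background. Of the Myc family, 5 of 7 genes were tested, 0 passed in Esm1+Kitl+ cells and 2 were higher in EHT-like cells, where Mycn was 9.25-fold higher (1.30e-07). Mycn is also among the EHT markers by which that class was named, so that its difference there is in part built in. The 5 cycling markers summed to 203 to 249 CPM in EHT-like, 95.2 to 362 CPM in Esm1+Kitl+ and 595 to 893 CPM in arterial-like cells. Their part in these differences was not tested.

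The comparison the study was made for is cKO against control, and here no member was called in any of the 7 classes with 4 sums. Nupr1 itself was lower in the cKO pools: it stood at 2.84 and 7.06 CPM in the cKO and 57.6 and 70.3 CPM in the control EHT-like sums (log2 fold change −3.61 ± 0.47 SE, adjusted p = 0.0308). In macrophage-like cells it stood at 0.286 and 2.25 CPM against 23.4 and 40.7 CPM, and in arterial-like cells at 0 and 0.426 against 4.79 and 12.8 CPM. Esm1+Kitl+ and venous-like cells had 0 Nupr1 UMIs in all sums. Which part of the gene is removed in the cKO is not given in the sources used here, so that transcript ends from the rest of it may still be counted.

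The share of all genes called was 0% in arterial-like, Esm1+Kitl+, venous-like, Hlf+Myb+ and macrophage-like cells, 0.0119% in EHT-like cells (1 gene, Nupr1) and 0.0422% in Mpo+ progenitor-like cells (4 genes). At an unadjusted p under 0.05 there were 79, 199, 60, 35 and 25 genes in the first 5 of these, and DESeq2 called 0 in each. With the replicate as a block edgeR called 3 genes in arterial-like, 8 in Esm1+Kitl+, 55 in venous-like, 22 in EHT-like, 6 in Hlf+Myb+, 2 in Mpo+ progenitor-like and 3 in macrophage-like cells, with no member among them. The 64 member differences that could be tested ran from −0.84 to 0.90 on the log2 scale, with a lowest p of 0.062 before adjustment and a lowest adjusted p of 1.00 (edgeR). Over the 70 pairs of gene and class, cKO was above control in both replicates in 26, below in both in 14, and mixed in 30. The same count over all genes was not taken. The pairs share their pools and several of the genes ran together, so that these counts are descriptions only. A test of whether the genotype difference depends on the class called 0 of 11328 genes (52 at an unadjusted p under 0.05). Pfkp came nearest among the members (edgeR adjusted p = 1.00, 0.0876 before adjustment).

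Slc2a1 in Esm1+Kitl+ cells, the highest level of either transporter, shows the spread: cKO was 1.29 times control in replicate 1 and 0.897 times in replicate 2 (log2 fold change 0.07 ± 0.27 SE). Hk2 in EHT-like cells was 0.674 times control in replicate 1 and 1.16 times in replicate 2 (−0.40 ± 0.52). In each of these the sign turned when 1 pool was left out. Pfkp was higher in both cKO sums of Esm1+Kitl+ cells (17.5 and 16.0 against 11.3 and 6.54 CPM, 0.90 ± 0.43, edgeR adjusted p = 1.00, 0.0652 before adjustment) and lower in both of Hlf+Myb+ cells (5.16 and 5.39 against 9.59 and 9.17 CPM, −0.84 ± 0.39, edgeR adjusted p = 1.00, 0.062 before adjustment). These sums held 31, 25, 13 and 7 Pfkp UMIs in Esm1+Kitl+ cells and 18, 22, 33 and 38 in Hlf+Myb+ cells. Ldha in Esm1+Kitl+ cells stood at 699 and 735 against 476 and 570 CPM (0.46 ± 0.23, edgeR adjusted p = 1.00, 0.0698 before adjustment). None of these 3 passed over all genes tested. Pgk1 is X-linked and the pools differed in their X-chromosome transcripts, with Xist at 4.24 and 144 CPM in the cKO and 417 and 257 CPM in the control pools. Its genotype differences ran from −0.17 to 0.27, and the part of the embryos' sex in them was not tested.

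**Figure D4:**
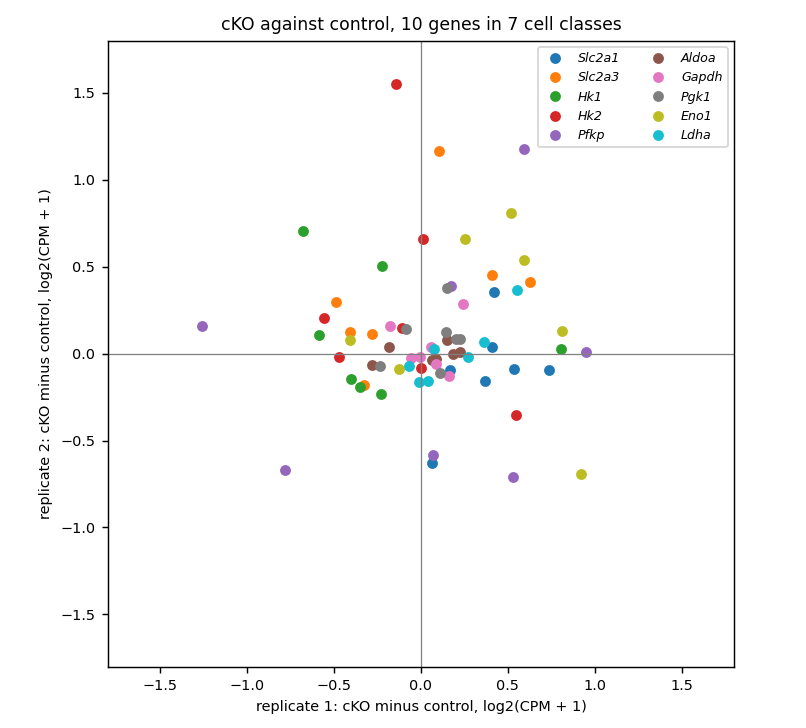
Difference between cKO and control in replicate 1 (x axis) and replicate 2 (y axis), as log2(CPM + 1) of cKO minus control, for 10 genes in 7 classes (70 points). Points in the upper right quadrant (26) are higher in cKO in both replicates, those in the lower left (14) lower in both, and the 30 others have opposite signs. The points share the same pools and are not separate observations.

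The replicates differed more evenly than the genotypes. Aldoa, Gapdh, Pgk1 and Ldha were higher in replicate 2 than in replicate 1 in both genotypes of all 7 classes with 4 sums, 14 of 14 ratios for each gene. The median ratio was 1.43 for Aldoa (1.19 to 1.64), 1.37 for Gapdh (1.08 to 1.72), 1.39 for Pgk1 (1.02 to 1.87) and 1.35 for Ldha (1.05 to 1.71). Eno1 was lower in replicate 2 in 14 of 14 (median ratio 0.552), and Hk2 in 12 of 14 (0.474). Replicate 2 had the lower mitochondrial share given above and 91511039 UMIs against 32430285, and the part of these in the ratios was not tested.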

How the data were processed

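Single-cell RNA-seq of CD31+CD44+ cells from E10 caudal regions was analysed from the deposited tables of UMI counts. The authors sequenced 10x Chromium V3 libraries, mapped reads with Cell Ranger (5.0.1, with build mm10 in the submitters' processing notes), kept HTODemux singlets and deposited whole-number counts per gene and cell that are not normalized. The methods state limits of over 1800 genes, over 6000 UMIs and under 5% mitochondrial reads. 101 of the 2139 cells lie outside them and were kept, and an alternative left them out. No doublet caller was run, and an alternative left out the top 5% of cells by UMIs.

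Cells were integrated and clustered with Seurat 5.3.0 (R 4.3.3; 2000 features, 20 principal components, resolution 0.7, 13 clusters), with the members, the pathway lists, Nupr1 and sex-linked genes left out of the features. A first naming rule gave no separate EHT cluster up to resolution 1.5, so a second one was used (EHT list mean of at least 6 on the log2 scale, then endothelial against progenitor markers), chosen with the cells per pool in view but not the members' values. A second integration setting was also looked at. The Hlf+Myb+ class, its contrasts and the test of genotype by class were added to the planned design after the clusters were seen. Counts were summed per class, genotype and replicate (at least 10 cells). They were tested with edgeR 4.0.16 (TMM, filterByExpr, robust quasi-likelihood, Benjamini-Hochberg adjustment over all genes, threshold 0.05), with all classes in 1 fit for class contrasts and each class alone for cKO against control. SEs were taken from the log2 fold change and its F value. DESeq2 1.42.0 was an alternative. Shares were compared by exact permutation tests that did not pair the sums of a pool.

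Replicate numbers were taken to pair the sums, because both genotypes of a number shared a lane. Deviations of cKO and control from their group means correlated at r = 0.221 to 0.507 in the 7 classes. The main fits held no block, so that the pairing entered only in the block alternative. In simulated data of the EHT-like contrast (8922 genes) the fit recovered 100% of 4-fold and 88% of 2-fold changes with 9 false of 197 calls. For cKO against control in arterial-like cells (9698 genes) it recovered 95% and 42%, with 3 false of 140. The changed genes were drawn from well counted ones, so that these rates do not cover members with few counts, such as Pfkp. The first simulation held the EHT-like and arterial-like sums only, with no shared pools.

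The members and lists were chosen with earlier results of these data known. Named were all 10 members, in each comparison up to 5 genes of each list with the largest change among those that passed (of which those printed were chosen after their values were seen) and the 3 genes most like each member by r among genes of at least 20 CPM on average. The genotype differences given singly (unadjusted p under 0.1, Slc2a1 in Esm1+Kitl+ and Hk2 in EHT-like cells) were chosen after their values were seen. Positions are from GENCODE M21 by symbol, and figures were drawn with matplotlib 3.10.9 in Python 3.11.15.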

Additional observations from a re-analysis of the deposited data

Results flagged for a closer look

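In 5 of the 70 groups of 4 sums 1 value stood apart from the other 3 by more than Dixon's 95% limit. Chance gives about 1 in 20 such groups. Slc2a1 in Hlf+Myb+ cells was 30.8 CPM in control replicate 1, below the other sums. Hk1 in Mpo+ progenitor-like cells was 61.4 CPM in cKO replicate 1, a sum of 10 cells and the highest of the 4. Hk2 in venous-like cells was 4.83 CPM in control replicate 2, the lowest, and Pfkp in macrophage-like cells was 29.2 CPM in cKO replicate 1, the highest. Eno1 in arterial-like cells was 8.44 CPM in cKO replicate 1, the highest.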

How the results depend on the processing

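The 55 member differences between classes that passed kept their direction in each of the 9 alternatives and 4 left-out pools that gave a value for them. Of them, 46 kept the call in the alternatives that gave a value and 43 also without each pool that did. Megakaryocyte-like cells gave no value without cKO replicate 2 or control replicate 2, and Pfkp and Eno1 none when thinned. The alternatives were DESeq2, RLE scaling, no low-count filter, a block, the methods' cell limits, a direct marker gate, clustering with the listed genes kept (2117 of 2139 cells in the same class), thinning to 6000 UMIs and leaving out the top 5% of cells. The block was the pool for class contrasts and the replicate for cKO against control. Causes of the changes below were not tested.

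With the pool block, which pairs the sums of a genotype and replicate across classes, members called went to 5 higher and 1 lower in Esm1+Kitl+ cells, 2 lower in venous-like, 8 higher and 2 lower in Hlf+Myb+, 2 lower in macrophage-like, 9 higher in megakaryocyte-like and 4 higher in EHT-like cells, and to 3 and 7 higher in Hlf+Myb+ and Mpo+ progenitor-like against EHT-like cells. Genes called went from 1813 to 2853 in Esm1+Kitl+ cells and from 1484 to 2557 between Hlf+Myb+ and EHT-like cells. For cKO against control the fit with the replicate as the block called 3, 8, 55, 22, 6, 2 and 3 genes (arterial-like, Esm1+Kitl+, venous-like, EHT-like, Hlf+Myb+, Mpo+ progenitor-like, macrophage-like), none of them a member. Without the block it was 0, 0, 0, 1, 0, 4 and 0.

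The marker gate gave 2 members lower in venous-like, 2 in Mpo+ progenitor-like and 2 in macrophage-like cells and 1 lower in megakaryocyte-like cells. It gave no value for Esm1+Kitl+, EHT-like and Hlf+Myb+ cells. With the listed genes kept, 2 were lower in venous-like cells. Thinning gave 1 higher in Esm1+Kitl+, 0 lower in venous-like, 5 higher in Mpo+ progenitor-like and 2 lower in macrophage-like cells, and 1 higher and 0 lower between Hlf+Myb+ and EHT-like cells. Thinning also lowered all-gene calls to 603, 1084, 1553, 3309, 3743, 3982 and 3571 against arterial-like cells (Esm1+Kitl+, venous-like, EHT-like, Hlf+Myb+, Mpo+ progenitor-like, macrophage-like, megakaryocyte-like), and to 425 and 1745 for Hlf+Myb+ and Mpo+ progenitor-like against EHT-like cells. Fewer counts are left there. Without the low-count filter, cKO against control called 3, 11, 8, 4, 7 and 26 genes (arterial-like, Esm1+Kitl+, venous-like, EHT-like, Mpo+ progenitor-like, macrophage-like). Thinned EHT-like cells gave 0 and gated Mpo+ progenitor-like cells 2.

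No value that turned sign had passed as reported. Eno1 in Esm1+Kitl+ cells was −0.0058 with the listed genes kept, Eno1 in EHT-like cells 0.045 without the top 5% of cells, and Slc2a1 in megakaryocyte-like cells 0.12 without the filter. Thinned, Slc2a3 in Esm1+Kitl+ cells was 0.044, Hk1 in EHT-like cells 0.12, Hk1 in Mpo+ progenitor-like cells −0.32 (−0.56 by the gate, adjusted p = 0.0334 in edgeR), Hk2 in megakaryocyte-like cells −0.064, and Hk1 and Hk2 between Mpo+ progenitor-like and EHT-like cells −0.44 and −0.59. The share of Slc2a3 in megakaryocyte-like minus arterial-like cells was 71.8 points by the gate and passed there, and that of Hk2 turned to 15.0. Under the cell limits the Slc2a3 share of Mpo+ progenitor-like minus EHT-like cells (18.3) no longer passed and the Hk2 share of venous-like minus arterial-like cells (11.3) did. Thinned, the Hk2 share of Esm1+Kitl+ minus arterial-like cells (−7.11) did not.

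Leaving out 1 pool at a time, members called ranged from 0 to 1 lower in venous-like cells, 2 to 4 higher in EHT-like cells, 1 to 2 lower in macrophage-like cells (2 without control replicate 1) and 0 to 1 lower between Hlf+Myb+ and EHT-like cells. All-gene calls ranged from 1095 to 1451 in Esm1+Kitl+, 2138 to 2780 in venous-like and 2567 to 3792 in EHT-like cells, and from 727 to 1326 between Hlf+Myb+ and EHT-like cells. For cKO against control they ranged from 1 to 19, 3 to 185, 1 to 79, 4 to 7, 0 to 17, 11 to 32 and 5 to 31 in the 7 classes in turn, where a lone sum is assumed to vary like the others. Eno1 in Esm1+Kitl+ cells ran from −0.094 to 0.58, Slc2a1 in cKO against control Esm1+Kitl+ cells from −0.23 to 0.46, Hk2 in cKO against control EHT-like cells from −1.05 to 0.89, and the Hk2 share of Mpo+ progenitor-like minus EHT-like cells from −1.35 to 5.30 points.

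No member was called for cKO against control under any alternative. Of its 64 values the sign turned in 1 with DESeq2, 0 with RLE, 1 without the filter, 3 with the block, 2 with listed genes kept, 3 of 54 under the cell limits, 3 of 29 by the gate, 9 of 40 thinned and 5 of 62 without the top 5% of cells. Without cKO replicate 1 and 2 it turned in 18 and 17, and without control replicate 1 and 2 in 29 and 14. With 2 pools a genotype, the simulated test recovered 42% of 2-fold changes in arterial-like cells, among well counted genes. This limits what it can call there.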
